A study of Arabidopsis thaliana with 12 samples.

Results

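Hypocotyls that had lost receptors of the ERECTA family were compared directly with hypocotyls that had lost receptors of the PXY family. The comparison took the 3 libraries labelled er erl2 and the 3 labelled pxf, 6 of the 12 libraries of the series, with no wild-type library in the test. The er erl2 plants were er-105 erl2-1 double mutants, and the pxf plants were pxy-3 pxl1-1 pxl2-1 triple mutants; the labels list no mutation of the other family in either line. Both lines came from laboratory stocks in a study whose wild type was Columbia-0. The plants were grown for 3 weeks in long days, and polyadenylated RNA was sequenced from the hypocotyl with the uppermost 5 mm of the root. Each line is a fixed combination of alleles, so an effect of losing the receptors and an effect of anything else that differs between the lines cannot be told apart here. The labels call the replicates biological but do not say how many plants each held, so the p-values measure the spread between these libraries. The remaining libraries, wild type and the pxf er erl2 quintuple mutant, are quoted for a few genes as levels only, on a scale set over all 12 libraries.

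The vascular cambium is the ring of dividing cells that thickens the hypocotyl and root, and it gives rise to xylem on its inner side and phloem on its outer side. PXY and its relatives PXL1 and PXL2 are receptor kinases. PXY binds the TDIF peptide, which is encoded by CLE41 and CLE44 and made in the phloem. PXY promotes cambial division through WOX4 and WOX14 while restraining xylem differentiation. ER, ERL1 and ERL2 are receptor kinases for EPF and EPFL peptides, with roles in stem elongation, stomatal spacing and radial growth of the hypocotyl.

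The mutated receptors were read first. PXY measured 349, 369 and 333 CPM (counts scaled to the size of the library) in er erl2 replicates 1 to 3 and 20.7, 22.1 and 25.9 CPM in pxf replicates 1 to 3. Every er erl2 library stood far above every pxf library, with a log2 fold change (er erl2 over pxf, as throughout) of 3.94 ± 0.09 (SE, n = 3 against 3; adjusted p = 5.87e-09). ER went the other way, at 8.70, 8.58 and 11.5 CPM in er erl2 and 62.2, 59.9 and 65.6 CPM in pxf, a log2 fold change of -2.71 ± 0.11 (adjusted p = 2.96e-07). PXY and ER thus separated the libraries as labelled. The other mutated genes had too few counts to be tested. PXL1 had 5, 0 and 5 raw counts in er erl2 and 13, 10 and 14 in pxf, the line labelled as its mutant. PXL2 had 4, 12 and 3 in er erl2 and 6, 5 and 8 in pxf, and ERL2 had 5, 6 and 3 in er erl2 and 0, 9 and 5 in pxf. For PXL2 and ERL2 the groups overlapped, and these genes could not check a label at this depth. PXL1 did not overlap and ran against its label: on the scale of all 12 libraries it stood at 0.689 to 1.08 CPM in pxf, 0.170 to 0.284 CPM in the wild type and 0.312 to 0.452 CPM in the quintuple mutant. Which part of PXL1 the pxl1-1 allele removes is not given in the labels, and the reason for these counts was not tested.

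**Figure D1:**
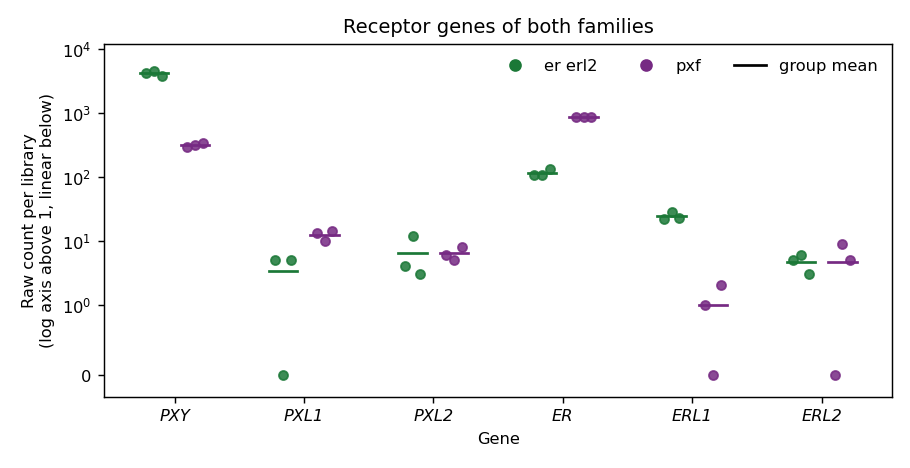
Raw counts per library of the 6 receptor genes in er erl2 and pxf, on an axis that is logarithmic above 1 and linear below it; points are libraries and lines are group means. PXY is high in er erl2 and ER is high in pxf with no overlap, while PXL1, PXL2 and ERL2 stay at 14 counts or fewer in every library.

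The lines differed widely. Of 18724 genes tested, 5146 (27.5%) passed an adjusted p of 0.05 in edgeR's quasi-likelihood test, 2367 (12.6%) of them higher and 2779 (14.8%) lower in er erl2 than in pxf. Most differences were small: 611 of the higher and 749 of the lower genes differed by 2-fold or more, and 216 (1.15% of genes tested) by 8-fold or more. All libraries of one line lay above all of the other for 8209 genes (43.8%), among them 5116 of those that passed. Total counts were 11307735 to 12260181 in er erl2 and 12893975 to 14716123 in pxf. The correlation of log2 CPM across genes was 0.984 to 0.989 between replicates and 0.930 to 0.942 between lines, and the lines were separated on the first principal component, which took up 76.3% of the variance. Without er erl2 replicate 1, 1566 genes were higher, down from 2367; with a test that requires more than a 2-fold change, 165 were higher and 287 lower.

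**Figure D2:**
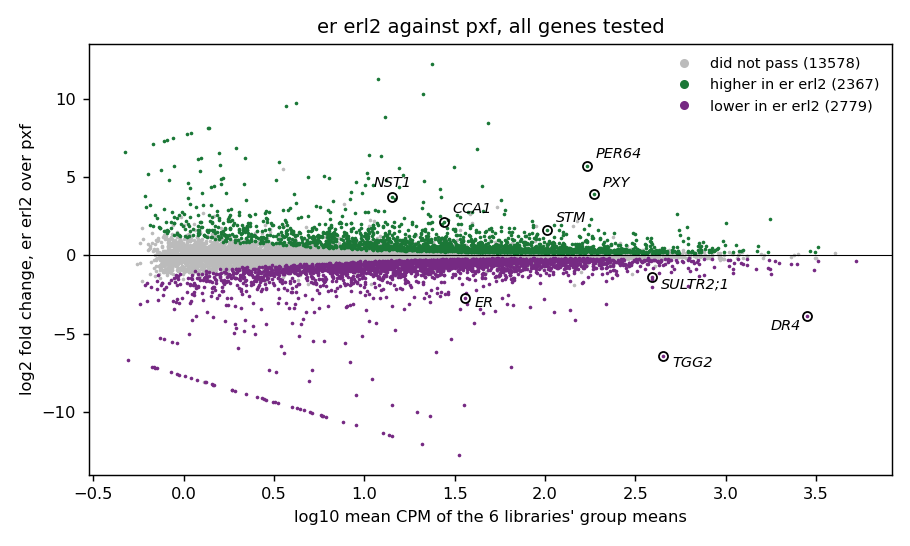
The log2 fold change of each of the 18724 genes tested against the log10 of its mean CPM; each point is a gene, coloured by whether it passed and in which direction. Named circles mark PXY, PER64, NST1, CCA1 and STM above 0 and ER, SULTR2;1, DR4 and TGG2 below it.

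Among genes of the PXY pathway, its peptide ligands and several of its targets differed between the lines. Of 14 members tested, 4 were higher and 5 lower in er erl2, 64.3% against 27.5% of all genes, with a median log2 fold change of -0.11 beside -0.00 for all genes tested. The ligand genes were lower in er erl2. CLE44 measured 14.3, 15.1 and 17.0 CPM in er erl2 and 32.7, 28.0 and 31.2 CPM in pxf, a log2 fold change of -0.98 ± 0.10 (adjusted p = 9.21e-05). CLE41 measured 109, 129 and 140 CPM in er erl2 and 187, 175 and 194 CPM in pxf, a log2 fold change of -0.56 ± 0.09 (adjusted p = 0.00156). Neither ligand gene had overlapping groups. The related gene CLE42, at 6.85 to 7.68 CPM in er erl2 and 7.27 to 8.80 CPM in pxf, did not pass (adjusted p = 0.627).

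Transcription factors downstream of PXY did not move one way. LBD11, a cambial regulator of the LOB-domain family, had the widest difference among them, at 23.6, 23.4 and 22.1 CPM in er erl2 and 8.42, 7.35 and 7.88 CPM in pxf (log2 fold change 1.55 ± 0.10, adjusted p = 6.14e-06). WOX14 measured 22.0, 20.9 and 18.7 CPM in er erl2 and 9.06, 10.05 and 12.5 CPM in pxf (log2 fold change 0.97 ± 0.13, adjusted p = 0.00059). Both were clearly separated between the lines. WOX4, the best-known homeobox target, was only slightly higher in er erl2, at 74.9 to 81.1 CPM against 60.8 to 69.2 CPM (log2 fold change 0.27, adjusted p = 0.0148), and did not pass without pxf replicate 1 (adjusted p = 0.0591) or pxf replicate 3 (0.0538). The DOF factor TMO6 was lower in er erl2 by 0.42 on the log2 scale (46.8 to 50.6 against 60.9 to 69.1 CPM, adjusted p = 0.00214). The receptor kinase RUL1 was 0.27 lower (adjusted p = 0.0104), and LBD4 was 0.23 lower (adjusted p = 0.0435), a call that 4 of the 6 omissions of a single library ended (er erl2 replicate 1 or 2, pxf replicate 2 or 3; adjusted p = 0.0911 to 0.127). BIN2, a kinase that PXY signals through, and its substrates BES1 and BZR1 did not pass, with log2 fold changes of -0.11, 0.09 and 0.09.

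In the ERECTA pathway, 1 of 11 members tested was higher and 1 lower, both of them receptors (18.2% against 27.5% of all genes), and the median log2 fold change was 0.12. The higher member was ERL1, with 22, 28 and 23 counts in er erl2 and 1, 0 and 2 in pxf. Summed over libraries this was 73 counts against 3, a ratio of 28.3 (95% interval 9.31 to 140, counting error only) after allowing for depth, with adjusted p = 0.000281. In the wild type ERL1 stood at 0 to 0.0912 CPM on the scale of all 12 libraries, near the pxf level. The coreceptors SERK1, SERK2 and BAK1 and the kinases YDA, MKK4, MKK5, MPK3 and MPK6 lay between -0.16 and 0.24 on the log2 scale, and none passed. The peptide gene EPFL4 was near the detection limit at 0.331 to 0.615 CPM in er erl2 and 1.07 to 1.11 CPM in pxf (adjusted p = 0.0637).

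Of 16 meristem and cambium regulators tested, 8 were higher and 1 lower in er erl2, beside 12.6% higher and 14.8% lower among all genes (median log2 fold change 0.23). STM, a KNOX homeobox gene that maintains meristem cells, measured 147, 160 and 159 CPM in er erl2 and 47.9, 47.0 and 56.3 CPM in pxf, a log2 fold change of 1.62 ± 0.08 (adjusted p = 9.7e-07). Its levels were 119 to 142 CPM in the wild type and 21.8 to 30.6 CPM in the quintuple mutant, on the scale of all 12 libraries. The related KNAT1, which promotes xylem fibre formation in the hypocotyl, was 0.41 higher on the log2 scale (183 to 213 against 148 to 150 CPM, adjusted p = 0.00148), whereas KNAT2 and KNAT6 did not pass (log2 fold changes -0.02 and -0.03).

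All 5 HD-ZIP III genes, which encode transcription factors that specify xylem and cambium identity, were higher in er erl2. REV measured 189, 204 and 189 CPM in er erl2 and 127, 128 and 121 CPM in pxf (log2 fold change 0.63 ± 0.06, adjusted p = 5.64e-05). CNA measured 365, 372 and 386 CPM in er erl2 and 246, 259 and 264 CPM in pxf (log2 fold change 0.55 ± 0.06, adjusted p = 0.000124). PHB, HB-8 and PHV were 0.39, 0.38 and 0.24 higher, and none of the 5 genes had a pxf library above an er erl2 library. Among the D-type cyclins that sustain cambial division, CYCD3;3 was 0.90 higher (37.7 to 46.1 against 21.0 to 23.2 CPM, adjusted p = 0.000129) and CYCD3;1 was 0.26 lower (adjusted p = 0.0219). The CYCD3;1 call, the one lower gene of the list, was lost without er erl2 replicate 1, er erl2 replicate 2 or pxf replicate 1. The AP2-type genes ANT, AIL5, AIL6 and AIL7 did not pass. Of 21 genes of mitosis and DNA replication, 20 did not pass (4.8% passed, against 27.5% of all genes) and the median log2 fold change was 0.00. The one that passed, CDC20.1, an activator of the anaphase-promoting complex, was 0.38 lower in er erl2 (adjusted p = 0.038) and did not pass without er erl2 replicate 1, 2 or 3 or without pxf replicate 1 or 3 (adjusted p = 0.0673 to 0.129). Without pxf replicate 2, 1 mitotic gene was higher and 4 were lower.

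Transcription factors that switch on secondary wall formation included some of the widest differences of any group. Of 24 tested, 11 were higher and 3 lower in er erl2 (58.3% against 27.5%), with a median log2 fold change of 0.32. The higher genes were led by the NAC master switches of fibre cells. NST1 measured 29.2, 33.5 and 16.6 CPM in er erl2 and 1.57, 2.91 and 1.38 CPM in pxf, a log2 fold change of 3.74 ± 0.38 (adjusted p = 0.00088). SND1 measured 32.0, 35.7 and 8.70 CPM in er erl2 and 0.784, 1.18 and 0.689 CPM in pxf, a log2 fold change of 4.83 ± 0.77 (adjusted p = 0.0102). Both were low in all pxf libraries, and er erl2 replicate 3 was the lowest of its line. The SND1 call was lost without pxf replicate 1, 2 or 3 (adjusted p = 0.0521 to 0.0615).

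The other higher factors were NST2 and MYB69, at 2.59 and 2.77 on the log2 scale, the direct targets MYB46 (1.11) and MYB103 (1.96), and MYB85, MYB43, MYB52, SND2 and SND3, at 0.71 to 1.67. Most of the vessel switches did not pass. VND7 was 0.76 lower in er erl2 (2.90 to 3.06 against 4.30 to 6.20 CPM, adjusted p = 0.0216) and VND3 was 0.68 lower (adjusted p = 0.0118), while VND1, VND2, VND4, VND5 and VND6 did not pass. MYB63, an activator of lignin genes, was 0.73 lower (adjusted p = 0.00387). With single libraries left out, 2 to 4 of the 24 factors were lower. In the wild type NST1 stood at 19.7 to 27.0 CPM and in the quintuple mutant at 1.48 to 3.64 CPM, on the scale of all 12 libraries.

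Genes for the secondary wall itself were higher in er erl2 in most of the list. Of 37 tested, 22 were higher and 2 lower, 64.9% against 27.5% of all genes, and the median log2 fold change was 0.79. All 8 genes for the hemicellulose xylan passed as higher, from 0.63 for IRX14 to 1.48 for GUX1, as did all 4 accessory wall genes (FLA11, FLA12, COBL4 and CTL2). Of the cellulose synthase subunits, CESA7 and CESA8 were 1.38 and 1.46 higher, and CESA4, at 367, 417 and 203 CPM in er erl2 and 191, 204 and 186 CPM in pxf, had a log2 fold change of 0.76 and did not pass (adjusted p = 0.11).

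Lignin genes were mixed: 8 of 18 were higher and 2 lower, beside 12.6% higher and 14.8% lower among all genes. LAC17, a laccase that joins lignin monomers, measured 54.1, 48.3 and 41.8 CPM in er erl2 and 14.2, 15.5 and 15.3 CPM in pxf, a log2 fold change of 1.68 ± 0.11 (adjusted p = 4.54e-06). PER64, a peroxidase best known for lignin deposition at the Casparian strip, measured 355, 484 and 165 CPM in er erl2 and 4.71, 10.1 and 4.06 CPM in pxf, a log2 fold change of 5.72 ± 0.65 (adjusted p = 0.00486). PER64 had the widest difference of the list, and its wild-type level of 171 to 333 CPM, on the scale of all 12 libraries, lay nearer to er erl2 than to pxf. PAL4, which encodes an isoform of the entry enzyme of the phenylpropanoid pathway, was 1.59 higher, whereas PAL1 and PAL2 did not pass (log2 fold changes 0.14 and 0.01). The 2 lower genes were 4CL2 and HCT, enzymes of the same pathway, at -0.34 and -0.28. None of the 4 genes for the cell death of vessels passed; the proteases XCP1, XCP2 and MC9 had log2 fold changes of -0.17, 0.09 and 0.97, and the nuclease BFN1 had 0.79.

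The size of the wall signal differed within er erl2. Summed over the 37 genes, er erl2 replicates 1 and 2 reached 10252 and 10689 CPM, er erl2 replicate 3 reached 7522 CPM, and the pxf libraries lay between 6280 and 7107 CPM. All er erl2 libraries were above all pxf libraries, but the number of higher genes depended on the set of libraries: it was 27 without er erl2 replicate 3, 14 without er erl2 replicate 1, 19 without er erl2 replicate 2, and 11, 14 and 8 without pxf replicates 1, 2 and 3. COBL4 was 1.61 higher (adjusted p = 0.0134) and did not pass whichever pxf library was left out (adjusted p = 0.0574 to 0.0635). In a bulk sample fewer cells of a type and less RNA per cell cannot be told apart, which holds for this and every other tissue list.

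Promoters of these wall genes are shown because MYB46, one of the factors named above, binds a known short element in such promoters. The element, the secondary wall MYB-responsive element, was searched on both strands as its 8 spellings ACCAAAC or ACCAAAT, either ACCAACC or ACCAACT, either ACCTAAC or ACCTAAT, and either ACCTACC or ACCTACT, in the 250 bases before each gene start in RefSeq TAIR10.1. It occurred in 23 of 37 promoters of the wall gene list (62.2%), in 4 of 26 promoters of the listed transcription factors, and in 29.4% of all 27443 protein-coding promoters. Promoters of 3 lignin genes, higher in er erl2 and with a match, follow 5′ to 3′ on the coding strand (matches in capitals). They lie at chr5:16852378-16852627 (plus strand), chr5:24167746-24167995 (plus strand) and chr3:3203738-3203987 (plus strand). The nearest match began 105 bases before the gene start in PER64, 61 before it in LAC17, and 30 before it in PAL4, which had 2 matches. CESA7, CESA8 and COBL4, also higher in er erl2, held none of the 8 spellings in this window. A match is a description of the letters and not a tested binding site.
PER64: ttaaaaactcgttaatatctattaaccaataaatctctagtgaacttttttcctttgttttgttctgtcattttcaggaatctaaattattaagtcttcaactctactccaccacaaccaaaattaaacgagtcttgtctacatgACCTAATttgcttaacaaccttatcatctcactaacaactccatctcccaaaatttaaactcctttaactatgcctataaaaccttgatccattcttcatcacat
LAC17: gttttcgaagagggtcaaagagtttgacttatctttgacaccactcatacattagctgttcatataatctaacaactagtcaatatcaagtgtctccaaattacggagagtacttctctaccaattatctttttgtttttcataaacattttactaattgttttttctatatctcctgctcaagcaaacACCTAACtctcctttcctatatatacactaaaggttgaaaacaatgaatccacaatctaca
PAL4: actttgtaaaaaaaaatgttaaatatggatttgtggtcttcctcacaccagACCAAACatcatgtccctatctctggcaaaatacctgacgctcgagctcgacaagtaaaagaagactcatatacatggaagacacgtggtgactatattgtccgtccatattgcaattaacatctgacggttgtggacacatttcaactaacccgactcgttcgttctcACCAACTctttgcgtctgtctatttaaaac

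**Figure D3:**
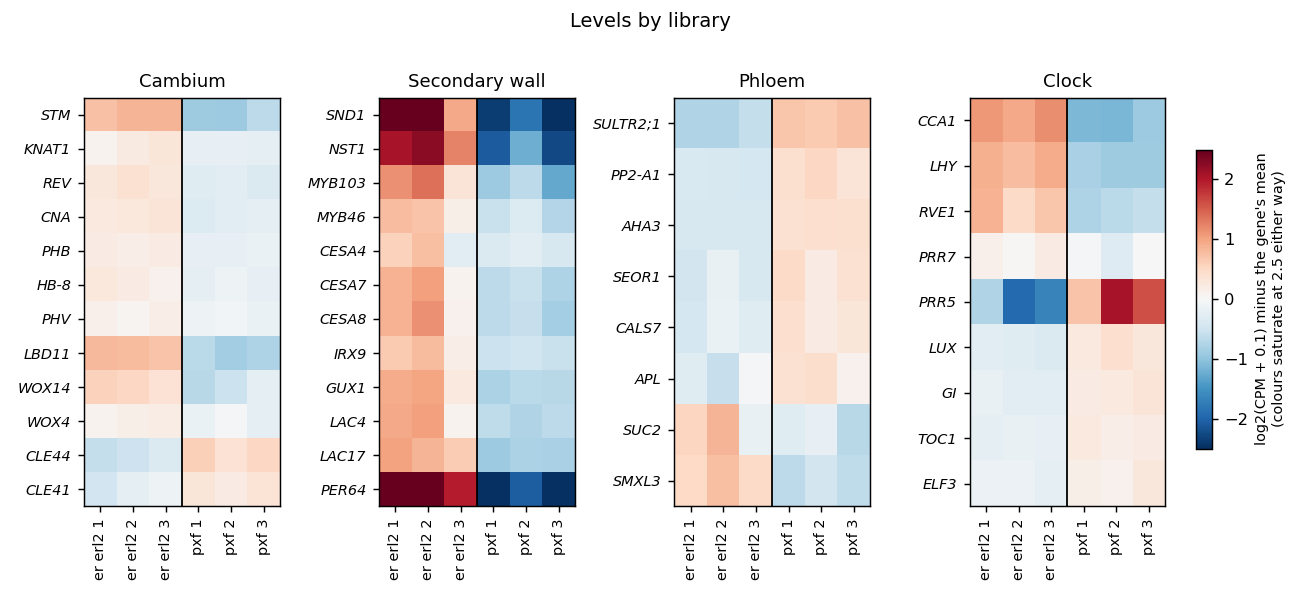
Levels of selected genes in each library, as log2(CPM + 0.1) minus the gene's mean over the 6 libraries; red is above and blue below that mean, and the colours saturate at 2.5. Among the genes shown, cambium and wall genes are mostly red in er erl2, and er erl2 replicate 3 is paler for wall genes. Most phloem genes shown are blue in er erl2, and the clock panel divides into genes of opposite sign. The genes are a selection and not whole lists, so the colours do not give the share of a list that differed.

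Phloem genes were mostly lower in er erl2. Of 17 tested, 10 were lower and 1 higher (64.7% against 27.5%), with a median log2 fold change of -0.61. SULTR2;1, a sulfate transporter of vascular tissue, measured 209, 209 and 231 CPM in er erl2 and 570, 549 and 587 CPM in pxf, a log2 fold change of -1.39 ± 0.06 (adjusted p = 6.79e-07). AHA3, the plasma membrane proton pump of companion cells, measured 85.3, 85.1 and 85.7 CPM in er erl2 and 148, 152 and 148 CPM in pxf (log2 fold change -0.81 ± 0.05, adjusted p = 5.25e-06). The groups were tight and well apart for both. PP2-A1, a phloem lectin, was 0.82 lower, and the sieve element genes SEOR1, SEOa and CALS7 were 0.70, 0.53 and 0.61 lower, as was APL, a regulator of phloem identity, by 0.61.

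The exception was SMXL3, a regulator of early phloem formation, at 8.62, 10.4 and 8.52 CPM in er erl2 and 3.85, 4.37 and 3.90 CPM in pxf (log2 fold change 1.18 ± 0.16, adjusted p = 0.00051). Its relative SMXL4 was 0.68 lower (adjusted p = 0.0074). The sucrose transporter gene SUC2, a defining companion cell marker, had a log2 fold change of 0.85 and did not pass (adjusted p = 0.0929); er erl2 replicate 3, at 43.9 CPM, was close to the highest pxf library, at 43.2 CPM.

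Suberin genes, which serve the barrier tissues outside the vascular cylinder, were lower in er erl2 in 7 of 13 cases and higher in 1 (61.5% against 27.5%), with a median log2 fold change of -0.59. CYP86A1, an omega-hydroxylase of suberin monomers, measured 68.4, 65.3 and 84.98 CPM in er erl2 and 143, 125 and 179 CPM in pxf (log2 fold change -1.03 ± 0.16, adjusted p = 0.0042). MYB36, the regulator of Casparian strip formation, measured 6.05, 4.57 and 6.68 CPM in er erl2 and 11.3, 11.1 and 12.9 CPM in pxf (log2 fold change -1.03 ± 0.16, adjusted p = 0.00135). The fatty acyl reductases FAR5 and FAR4, near-identical neighbours whose counts may be shared, were 1.23 and 0.89 lower. The higher gene was KCS20, a fatty acid elongase, at 0.43. The number of lower genes was 4 without er erl2 replicate 1, er erl2 replicate 2 or pxf replicate 1, and also without the filter on low counts.

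Genes of photosynthesis were lower in er erl2 without a case to the contrary among those that passed. Of 24 tested, 18 were lower and 0 higher, beside 14.8% lower and 12.6% higher among all genes. The median log2 fold change was -0.47. With a model over all 12 libraries 12 of 25 were lower, and with single libraries left out 15 to 20 were lower. The number higher stayed at 0 in these settings. RBCS1A, a small subunit of Rubisco, measured 426, 432 and 411 CPM in er erl2 and 788, 721 and 1006 CPM in pxf (log2 fold change -0.99 ± 0.11, adjusted p = 0.000438). LHCB1.3, a light-harvesting protein of photosystem II, measured 1239, 1346 and 1168 CPM in er erl2 and 2135, 2016 and 2676 CPM in pxf (log2 fold change -0.86 ± 0.11, adjusted p = 0.000507). The groups did not overlap for either, although pxf replicate 3 stood above the other pxf libraries. RBCS and LHCB1 genes are near-identical copies, so their single counts are uncertain. GAPB, a Calvin cycle dehydrogenase, was 0.95 lower and GLK2, a regulator of chloroplast development, 0.62 lower. On the scale of all 12 libraries RBCS1A stood at 133 to 202 CPM in the wild type and 750 to 1219 CPM in the quintuple mutant, so both mutant lines compared here lay above the wild-type libraries.

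Marker genes of the sampled tissue were present in every library. The summed level of 5 cambium markers was 733 to 754 CPM in er erl2 and 347 to 370 CPM in pxf, a sum that includes the mutated PXY. Without PXY the other 4 summed to 385 to 400 CPM in er erl2 and 327 to 344 CPM in pxf, while ANT stood at 60.1 to 86.6 against 78.9 to 99.6 CPM, ranges that overlapped and lay lower in er erl2. Xylem markers summed to 885 to 1584 CPM in er erl2 and 662 to 701 CPM in pxf, phloem markers to 230 to 295 and 323 to 372 CPM, and endodermis and periderm markers to 47.8 to 66.3 and 73.2 to 105 CPM. Single markers departed from these sums: XCP1 was at 148 to 168 CPM in er erl2 and 171 to 201 CPM in pxf, and SUC2 at 43.9 to 88.9 and 30.5 to 43.2 CPM. The endodermal CASP1, with few counts, was at 0.414 to 0.653 CPM in er erl2 and 0.0713 to 0.277 CPM in pxf. The 4 leaf mesophyll markers summed to 1788 to 1996 CPM in er erl2 and 2966 to 3993 CPM in pxf. Among them LHCB1.1 overlapped, at 47.6 to 49.7 CPM in er erl2 and 41.3 to 69.0 CPM in pxf. Root hair and root cap markers were at or near 0 throughout. Of the stomatal lineage genes, SPCH and MUTE had 0 counts, while FAMA was at 4.25 to 5.62 CPM in er erl2 and 3.00 to 4.37 CPM in pxf (adjusted p = 0.29). Of the flower markers, AP1 was counted 38 times over the er erl2 libraries and 7 times over those of pxf, LFY 0 and 5 times, and AG 0 times and 1 time. The part that tissue composition has in the gene lists was not tested.

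**Figure D4:**
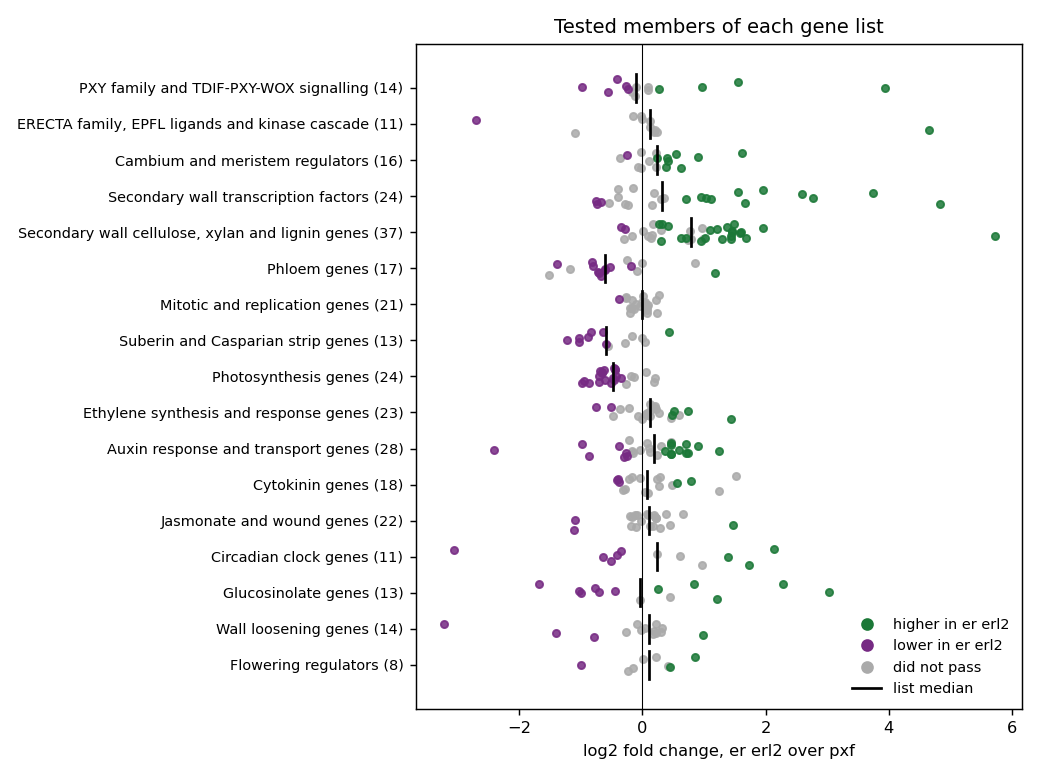
The log2 fold change (er erl2 over pxf) of every tested member of 17 gene lists, with the number tested in parentheses; points are genes coloured by whether they passed, and black bars are list medians. Wall genes lie mostly to the right of 0, while phloem, suberin and photosynthesis genes lie mostly to the left.

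Of 11 clock genes tested, 3 were higher and 5 lower in er erl2 (72.7% against 27.5% of all genes). The 3 higher genes were among 4 of the morning class. CCA1 measured 45.2, 41.2 and 47.8 CPM in er erl2 and 9.70, 9.63 and 11.3 CPM in pxf, a log2 fold change of 2.13 ± 0.10 (adjusted p = 6.84e-07). LHY, its partner MYB factor, measured 78.7, 71.8 and 80.9 CPM in er erl2 and 24.1, 22.7 and 22.7 CPM in pxf (log2 fold change 1.73 ± 0.07, adjusted p = 3.77e-07). The related RVE1 was 1.39 higher, and no er erl2 library came near a pxf library for any of these genes. RVE8, the other morning gene, had a log2 fold change of 0.60 and did not pass (adjusted p = 0.0619).

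All 4 evening genes tested were lower in er erl2: LUX by 0.64, GI by 0.51, TOC1 by 0.42 and ELF3 by 0.35 on the log2 scale. The daytime gene PRR5 measured 1.24, 0.490 and 0.615 CPM in er erl2 and 3.64, 9.35 and 6.81 CPM in pxf, a log2 fold change of -3.06 ± 0.46 (adjusted p = 0.00181), with wide spread within pxf. The other daytime genes, PRR7 and PRR9, had log2 fold changes of the opposite sign, 0.23 and 0.96, and did not pass. With a model over all 12 libraries, 5 clock genes were higher and 5 lower, as with a replicate block. The labels give no hour of harvest, so a difference in clock phase and a difference in sampling time between the lines cannot be told apart. CCA1 stood at 9.39 to 14.1 CPM in the wild type and 20.5 to 26.2 CPM in the quintuple mutant, on the scale of all 12 libraries.

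CCA1 and LHY are known to repress evening genes through the evening element, AAAATATCT, and the promoters that hold it are shown for that reason. Searched on both strands of the same 250 bases, it occurred in 3 of 12 clock promoters, those of PRR5, LUX and TOC1, and in 2.36% of all protein-coding promoters. All 3 genes were lower in er erl2, whereas the evening genes GI and ELF3, lower too, had no match in this window. A CCA1-binding site, AAAAATCT, was also searched. It occurred in 1 of 12 clock promoters, in 0 of 5 evening promoters and in 6.69% of all protein-coding promoters. Whether either element bears on the differences was not tested. The 3 promoters with the evening element are from RefSeq TAIR10.1, 5′ to 3′ on the coding strand. They lie at chr5:8358547-8358796 (minus strand), chr3:17182792-17183041 (plus strand) and chr5:24674713-24674962 (plus strand). The evening element is in capitals (in PRR5 and TOC1 it reads on the opposite strand). It began 187, 53 and 151 bases before the gene start in PRR5, LUX and TOC1.
PRR5: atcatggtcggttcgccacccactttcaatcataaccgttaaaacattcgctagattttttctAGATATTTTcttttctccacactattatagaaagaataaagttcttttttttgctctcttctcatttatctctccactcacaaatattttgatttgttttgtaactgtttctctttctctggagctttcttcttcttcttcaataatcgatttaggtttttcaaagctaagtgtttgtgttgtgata
LUX: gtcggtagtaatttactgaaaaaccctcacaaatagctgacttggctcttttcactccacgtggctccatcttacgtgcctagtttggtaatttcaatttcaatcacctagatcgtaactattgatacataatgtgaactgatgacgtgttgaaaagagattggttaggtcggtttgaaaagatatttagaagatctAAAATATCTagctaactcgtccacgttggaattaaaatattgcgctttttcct
TOC1: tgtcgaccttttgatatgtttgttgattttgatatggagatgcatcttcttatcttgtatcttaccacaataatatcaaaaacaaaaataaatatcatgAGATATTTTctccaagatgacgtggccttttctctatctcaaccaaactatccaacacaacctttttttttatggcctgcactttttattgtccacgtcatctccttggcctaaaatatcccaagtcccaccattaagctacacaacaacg

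Auxin genes changed often but in both directions: of 28 tested, 11 were higher and 7 lower (64.3% against 27.5% of all genes), with a median log2 fold change of 0.18. ARF5, the auxin response factor that starts vascular development, measured 66.0, 63.3 and 68.9 CPM in er erl2 and 39.1, 37.3 and 45.4 CPM in pxf (log2 fold change 0.70 ± 0.08, adjusted p = 0.000247). IAA12, IAA13 and IAA17, repressors of auxin response, were 0.47, 0.47 and 0.70 higher, and IAA30 was 1.25 higher. IAA28 and IAA14, repressors from the same family, were 0.86 and 2.41 lower, IAA14 from a level of 1.80 to 2.42 CPM in pxf.

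Auxin carriers divided in the same way. The influx carrier LAX2 measured 193, 179 and 189 CPM in er erl2 and 125, 97.2 and 114 CPM in pxf (log2 fold change 0.74 ± 0.09, adjusted p = 0.000283). LAX3, a carrier of the same family, measured 26.4, 32.8 and 26.4 CPM in er erl2 and 57.3, 52.4 and 60.2 CPM in pxf (log2 fold change -0.99 ± 0.10, adjusted p = 8.82e-05). The efflux carrier PIN4 was 0.46 higher, while PIN3, PIN6 and PIN7 did not pass, and AUX1 and LAX1 were 0.27 and 0.25 lower.

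Of 18 cytokinin genes tested, 2 were higher and 3 lower, a share (27.8%) near that of all genes (27.5%). The higher genes both break cytokinin down, CKX7 by 0.79 (94.7 to 99.7 against 52.8 to 58.7 CPM, adjusted p = 2.51e-05) and CKX5 by 0.56. The lower genes were the response regulators ARR9 and ARR7, at -0.41 and -0.38, and the synthesis gene IPT3 at -0.39. IPT3 did not pass without er erl2 replicate 1 or 3 or without pxf replicate 1 or 3 (adjusted p = 0.105 to 0.128). Without pxf replicate 2, 4 cytokinin genes were higher and 5 lower.

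Ethylene genes gave 4 higher and 2 lower of 23, a share (26.1%) near that of all genes. ETR2, an ethylene receptor, and EBF2, which targets the EIN3 transcription factor for degradation, were 0.52 and 0.48 higher, and the response factor ERF1 was 1.44 higher (8.17 to 18.5 against 3.75 to 5.71 CPM, adjusted p = 0.0139). ORA59 was 0.74 higher and ERF018 and ERF104 were 0.76 and 0.52 lower. The ORA59 call was lost on leaving out er erl2 replicate 1, 2 or 3 or pxf replicate 1 or 3 (adjusted p = 0.0570 to 0.130). The ERF018 call was lost without er erl2 replicate 1, er erl2 replicate 2 or pxf replicate 2, and the ERF104 call without er erl2 replicate 2, er erl2 replicate 3 or pxf replicate 2. No gene of ethylene synthesis passed.

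Of 22 jasmonate and wound genes, 1 was higher and 2 were lower (13.6% against 27.5% of all genes). VSP1 and VSP2, neighbouring and near-identical genes for vegetative storage proteins, moved in opposite directions: VSP1 measured 185, 192 and 178 CPM in er erl2 and 51.2, 76.3 and 73.3 CPM in pxf, and VSP2 measured 682, 704 and 710 CPM in er erl2 and 1223, 1985 and 1297 CPM in pxf. Their log2 fold changes were 1.47 ± 0.14 and -1.10 ± 0.19, and reads assigned between such copies make both uncertain. LOX2, a lipoxygenase of jasmonate synthesis at 2.07 CPM or less, was 1.09 lower, a call lost whichever single library was left out (adjusted p = 0.0540 to 0.118). None of the 9 JAZ repressor genes passed. Without pxf replicate 3, 4 genes of this list were lower. Of 4 gibberellin oxidases tested, GA20OX2, a synthesis gene at 2.29 to 2.46 CPM in er erl2 and 0.901 to 1.14 CPM in pxf, was higher by 1.19, but did not pass in the model over all 12 libraries (adjusted p = 0.0607).

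Glucosinolate genes, which make the sulfur-rich defence compounds of the cabbage family, passed in 11 of 13 cases (84.6% against 27.5% of all genes), 5 higher and 6 lower in er erl2. The indolic branch was lower: CYP79B2, CYP79B3, CYP83B1 and the regulator MYB34 were 1.03, 0.78, 0.45 and 0.71 lower, while MYB51 did not pass. The aliphatic branch was mixed. CYP79F1, which makes the first intermediate from chain-elongated methionine, measured 45.1, 40.4 and 25.9 CPM in er erl2 and 4.71, 4.50 and 4.52 CPM in pxf (log2 fold change 3.02 ± 0.22, adjusted p = 7.57e-05), and its counts may be shared with the near-identical CYP79F2. The regulator MYB29 was 2.27 higher and CYP83A1 1.22 higher, whereas MAM1, the methionine chain-elongation enzyme, measured 13.3, 9.47 and 7.56 CPM in er erl2 and 34.7, 27.8 and 34.6 CPM in pxf (log2 fold change -1.68 ± 0.19, adjusted p = 0.000474) and MYB28 was 1.00 lower. MAM1 stood at 1.19 to 1.90 CPM in the wild type on the scale of all 12 libraries, below both lines.

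Among wall-loosening genes 1 of 14 was higher and 3 were lower, a share (28.6%) near that of all genes (27.5%). The expansin EXPA4 measured 450, 444 and 472 CPM in er erl2 and 750, 783 and 822 CPM in pxf (log2 fold change -0.79 ± 0.06, adjusted p = 2.1e-05). EXPA5 was 3.22 lower, from 8.66 to 14.3 CPM in pxf, XTH31 was 1.41 lower, and XTH15 was 0.99 higher. Of 8 flowering regulators tested, 2 were higher and 1 was lower (37.5% against 27.5%). The repressor FLC was 1.00 lower (3.43 to 7.87 against 10.1 to 12.1 CPM, adjusted p = 0.0184), a call lost without er erl2 replicate 3 (adjusted p = 0.0582) or pxf replicate 3 (0.0558). MAF3, of the same MADS-box family, was 0.85 higher and did not pass without er erl2 replicate 2 (adjusted p = 0.0516), and the flowering integrator SOC1 was 0.44 higher (adjusted p = 0.00449).

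Genes outside the lists also differed widely. Among genes with at least 1 CPM in both lines, where PER64 had the widest rise, the widest fall was that of TGG2. TGG2, a myrosinase that cleaves glucosinolates, measured 9.11, 9.96 and 12.04 CPM in er erl2 and 881, 834 and 948 CPM in pxf, a log2 fold change of -6.42 ± 0.11 (adjusted p = 2.14e-09). DR4, a gene named for its repression by drought, measured 410, 373 and 290 CPM in er erl2 and 5305, 5466 and 4993 CPM in pxf, a log2 fold change of -3.88 ± 0.13 (adjusted p = 2.96e-07). The wild-type levels of TGG2 and DR4, 738 to 905 and 4446 to 4570 CPM on the scale of all 12 libraries, lay far nearer to pxf than to er erl2, and so did those in the quintuple mutant, 477 to 836 and 3718 to 4801 CPM. LDOX, the anthocyanidin synthase, was 3.63 lower, GSTF5, a glutathione transferase, 4.78 lower, and AT7SL-1, one of several near-identical genes for the RNA of the signal recognition particle, had a log2 fold change of -4.14. On the higher side, AT2G25790, annotated by RefSeq as a receptor-like kinase with the synonym SKM1, measured 45.3, 47.5 and 56.1 CPM in er erl2 and 3.92, 3.603 and 3.67 CPM in pxf (log2 fold change 3.73 ± 0.12, adjusted p = 4.2e-08). UGT84A3, a glucosyltransferase, was 4.35 higher, and AT1G50290, of unknown function, 5.64 higher. AT2G45220, a pectin methylesterase gene, and AT1G22480, a cupredoxin gene, were 4.24 and 4.74 higher. AT2G45220 did not pass whichever pxf library was left out (adjusted p = 0.0596 to 0.0644), nor AT1G22480 without pxf replicate 1 or 3 (0.0530 and 0.0611).

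Some genes were read in one line only. Of the 216 genes that differed by 8-fold or more, 44 had no count in any er erl2 library and 13 had none in any pxf library. AT5G28350, annotated as a RIC1-like guanyl-nucleotide exchange factor, had 2781 counts over the pxf libraries and 0 in er erl2, so it was at least 797-fold lower (against 3 counts over the line). AT3G43740, a leucine-rich repeat gene, was at least 496-fold lower. AT4G19240, of unknown function, was read 1686 times in er erl2 and 0 times in pxf, so it was at least 654-fold higher. AT5G27010, an ARM repeat gene, had 1502 counts against 1, a ratio of 1747 (95% interval 313 to 69046, counting error only), and DAR4, which encodes a DA1-related protein, had 1 count in er erl2 and 1906 in pxf. Of the 44 genes with no count in er erl2, 43 were counted in every wild-type library and 36 in every library of the quintuple mutant. These genes were picked for their counts in pxf, and the share of all genes counted in those libraries is not given here. The reason for the missing counts was not tested. Of the 13 with no count in pxf, 9 had none in the wild type either.

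These wide differences were unevenly placed in the genome. Chromosome 5 held 23.4% of the nuclear genes tested but 111 of the 216 genes that differed by 8-fold or more (51.4%), and 35.3% of its genes passed, against 22.6% to 26.7% on the other chromosomes. When tested genes were put in blocks of 100 neighbours by position, 22 of 190 blocks held 4 or more such genes, 12 of them on chromosome 5, 5 on chromosome 4, 4 on chromosome 3 and 1 on chromosome 1. In these crowded blocks 42.9% of genes passed, against 25.5% elsewhere. The blocks were chosen by passing genes, so part of this gap follows from the choice. Of the 934 genes that passed in them, 128 were the 8-fold genes used to choose them. None of the blocks that hold PXY, PXL1, PXL2, ER or ERL2 was among them, with 0 to 2 such genes each. The block next to that of ERL2, however, was crowded, with 4 such genes. In the blocks of the mutated genes 24 (ER) to 35 (PXY) of 100 genes passed. Of the genes named above, PER64, CESA4, RUL1, EPFL4, MPK3, PRR5, IAA14, MAM1, CYP83A1, FAR4, FAR5, KCS20, GLK2, GA20OX2, LOX2, VSP1, VSP2, EXPA5, XTH15, XTH31, UGT84A3, AT5G27010, AT5G28350 and AT3G43740 lie in crowded blocks. Outside them 2015 genes were higher and 2197 lower. The genotype of the lines at these blocks was not analysed here.

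**Figure D5:**
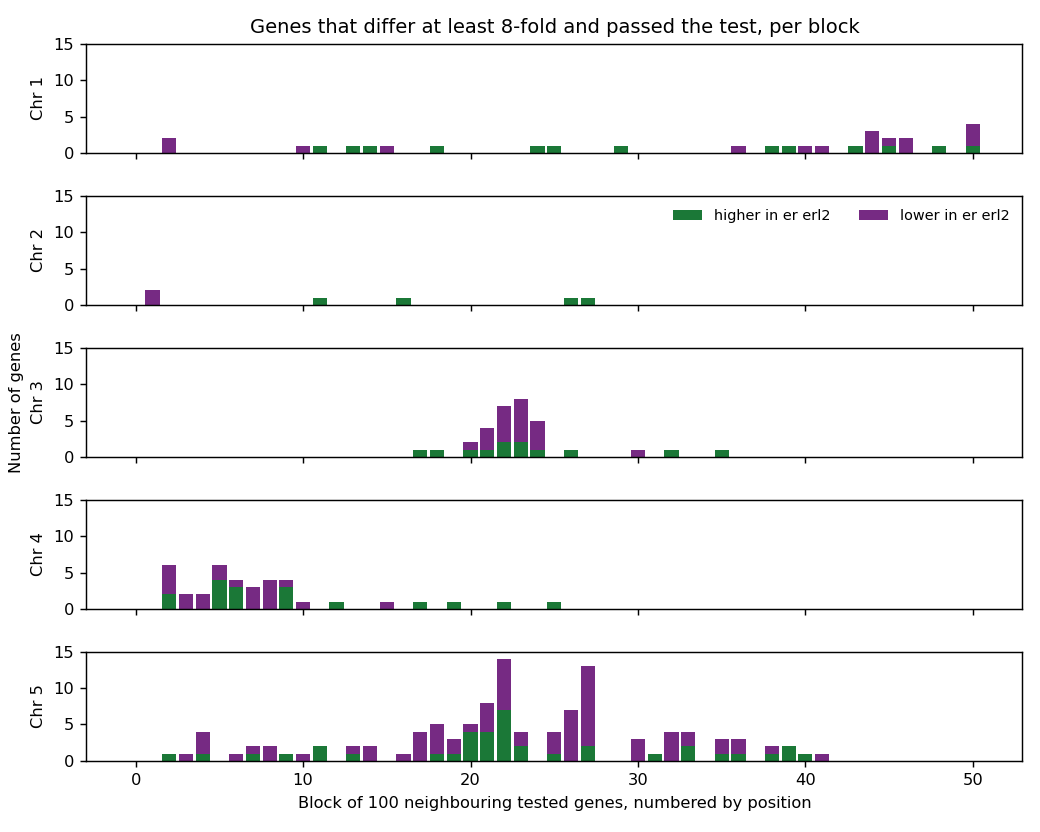
The number of genes that differ by 8-fold or more and passed the test in each block of 100 neighbouring tested genes, by chromosome, with genes higher in er erl2 in green and lower in purple. The bars stand mostly on chromosome 5, where 1 block holds 14 such genes, and in shorter runs on chromosomes 3 and 4.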

How the data were processed

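The authors deposited raw read counts per gene, 1 file per library, for 32833 Arabidopsis loci; per the submitters' processing notes, HISAT2 2.0.5, featureCounts 1.5.0-p3 and the TAIR10 build were used. The annotation, the strand setting and the treatment of reads shared between genes are not given in the sources used here, so counts of near-identical or overlapping genes are uncertain. Symbols, gene positions and promoters came from RefSeq TAIR10.1, which held 32548 of the loci; the others were 133 chloroplast and 152 mitochondrial loci. Groups and replicate numbers came from the titles.

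Only the er erl2 and pxf libraries were fitted, with genotype as the only term. In edgeR 4.0.16 (R 4.3.3), genes were filtered with filterByExpr, which kept 18724 genes holding 99.9% of counts, scaled by TMM (factors 0.982 to 1.01) and tested with the robust quasi-likelihood F-test, two-sided, with Benjamini-Hochberg adjustment over all genes tested; an adjusted p under 0.05 passed. The common biological coefficient of variation was 10.2%. Each SE was worked back from the quasi-likelihood test, as the absolute log2 fold change divided by the square root of the F statistic. CPM are TMM-scaled; a gene with no count in one line is compared against 3 counts over that line. The code was tested on simulated data with known changes. Alternatives were RLE factors, library totals, DESeq2 1.42.0, no filter, all 12 libraries, a replicate block, omission of each library and a minimum change of 2-fold (edgeR's glmTreat); the counts outside crowded blocks and of the gene lists without single libraries were added after seeing the data.

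The genes named were the mutated receptors; the 10 widest rises and falls at a mean of at least 1 CPM over the 6 libraries with groups that do not overlap; the same with at least 1 CPM in each line; all passing members of the PXY and ERECTA lists; and up to 4 passing members of each other list. Other genes named for a list were chosen after their values were seen. The gene lists, written from general knowledge, and the comparison itself were chosen with earlier results of these data known.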

Additional observations from a re-analysis of the deposited data

How the results depend on the processing

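The total of 5146 genes was 5175 with RLE factors, 5113 with library totals, 4595 with DESeq2, 5271 without a filter, 5058 with all 12 libraries and 4212 outside crowded blocks, and in every one of these the share of higher genes was 44.9% to 47.8%. A minimum change of 2-fold left 452 genes, 165 higher and 287 lower (36.5% higher). Leaving out single libraries gave 3731 to 4764 genes in all, 1566 to 2078 higher and 2165 to 2686 lower; the 1566 came without er erl2 replicate 1, and part of the loss follows from fewer samples. The labels do not say whether a shared replicate number marks a shared batch. Deviations from the line means correlated at -0.10, -0.07 and 0.05 for the same number and at -0.13 to 0.20 for different numbers. Deviations within a line constrain each other, so these values cannot decide whether the samples are paired. With a replicate block 4563 genes passed, 2037 higher and 2526 lower, and LBD4, ORA59, IPT3 and LOX2 did not pass. None of the 104 tested genes that the naming rule chose changed direction under any alternative; 50 of them did not pass the 2-fold minimum. Genes at a few CPM, such as ERL1, PRR5 and IAA14, are limited by depth, and PXL1, PXL2 and ERL2 could not be tested. The cause of the differences between settings was not tested.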
